A study of Mus musculus with 4 samples.

Results

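The clustered protocadherins are cell adhesion proteins of the cadherin superfamily, encoded by neighbouring genes on mouse chromosome 18. The members described here are the genes of that chromosome whose symbol begins with Pcdha, Pcdhb or Pcdhg. There were 58 of them, 14 in the alpha group, 22 in the beta group and 22 in the gamma group, against 21568 protein-coding genes placed with a strand in all. Of the 58 members, 57 are protein-coding and Pcdhgb8 is listed as a transcribed pseudogene. Their accessibility was read from ATAC-seq peak lists of fore- and hindlimbs from Wild Type mouse embryos, a method in which the Tn5 transposase cuts DNA that is open. The 4 samples form 2 groups of 2 replicates, named E10.5 and E11.5 after the embryonic day in their titles, and both groups share the Wild Type genotype with no treatment named. Forelimbs and hindlimbs are not told apart in the labels. The study concerns the limb gene En1, and its protocol text gives the earlier stage as E10.

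As background, each alpha and gamma gene has its own promoter and its own variable first exon, which encodes the extracellular part and is spliced to constant exons shared by the whole group. The beta genes are single-exon genes and have no constant exons. Neurons are known to switch on different small sets of variable promoters cell by cell, with the help of CTCF and cohesin and of distant enhancers, and the resulting surface proteins bind their like on other cells. The last genes of the alpha and gamma groups, Pcdhac1, Pcdhac2, Pcdhgc3, Pcdhgc4 and Pcdhgc5, form the C-type subgroup, which neurons express more uniformly.

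The data are 1 peak list per stage, each joining both replicates, so a value has no replicate spread, no test between stages could be made and the depth behind each list is unknown. A peak is called a region here, and its signal is the authors' own value, which grows with width and has no stated scaling between lists. The E10.5 list held 99356 regions on chromosomes 1 to 19, X and Y, and the E11.5 list 37413. In the interval of 1 Mb that holds the clusters (mm10, chromosome 18, 36900000 to 37900000), the E10.5 list held 27 regions and the E11.5 list 21. Of 12 limb mesenchyme markers, the earlier list held a promoter region for 12 and the later list for 10, without Tbx5 and Pitx1, where over all protein-coding genes the shares were 66.2% and 59.9%. Of the markers of neurons, the cells best known for these genes, 9 of 9 had such a region in the earlier list and 7 of 9 in the later. For the other cell types, the E10.5 and E11.5 counts were 7 and 4 of 8 for surface ectoderm, 5 and 4 of 6 for glia and neural crest, and 3 and 1 of 6 for endothelium. They were 2 and 2 of 5 for blood and 6 and 3 of 6 for muscle precursors. These counts do not single out limb mesenchyme, the part of the cell types in the protocadherin regions was not tested, and more cells of a type cannot be told apart from more open chromatin per cell.

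Most protocadherin promoters had no region in either list. A promoter was counted as having a region when a region lay within 1 kb of the start site, taken as the 5′ end of the gene in RefSeq. By that rule 8 of 58 members (13.8%, 95% Wilson interval 7.16 to 24.9%) were open at their promoter in the E10.5 list, where 66.2% of all protein-coding genes had a promoter region. At E11.5 the count was 4 of 58 (6.90%, 2.71 to 16.4%), where 59.9% of all protein-coding genes had one. In both lists together 4 members had a promoter region, against 59.5% of all genes. The other 4 had one in the E10.5 list only, a class that held 6.71% of all genes, and no member had one in the E11.5 list only, against 0.385% of all genes. Of the 8 members open at E10.5, 4 were thus open at E11.5, where the share over all genes open at E10.5 was 89.9%. Counted by region, 9 of the 27 E10.5 regions and 4 of the 21 E11.5 regions lay at a member's promoter. Over all chromosomes 14.1% and 33.4% of regions lay at any protein-coding promoter. The interval also held a region at the promoter of Taf7, which is no member, in each list. Intervals cover counting error only and treat neighbouring genes as independent.

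The members with a region were C-type genes and a few gamma genes of the A and B types. Of the 5 C-type genes, 4 had a promoter region in both lists, and these were the same genes, Pcdhac1, Pcdhac2, Pcdhgc3 and Pcdhgc4. The 4 other genes with an E10.5 region were Pcdhga7, Pcdhgb7, Pcdhga11 and Pcdhga12. Outside the C-type genes the counts were 4 of 53 at E10.5 (7.55%) and 0 of 53 at E11.5 (95% Wilson interval 0 to 6.76%). No test of the subgroups against each other was run, since they were compared with their values in view.

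**Figure D1:**
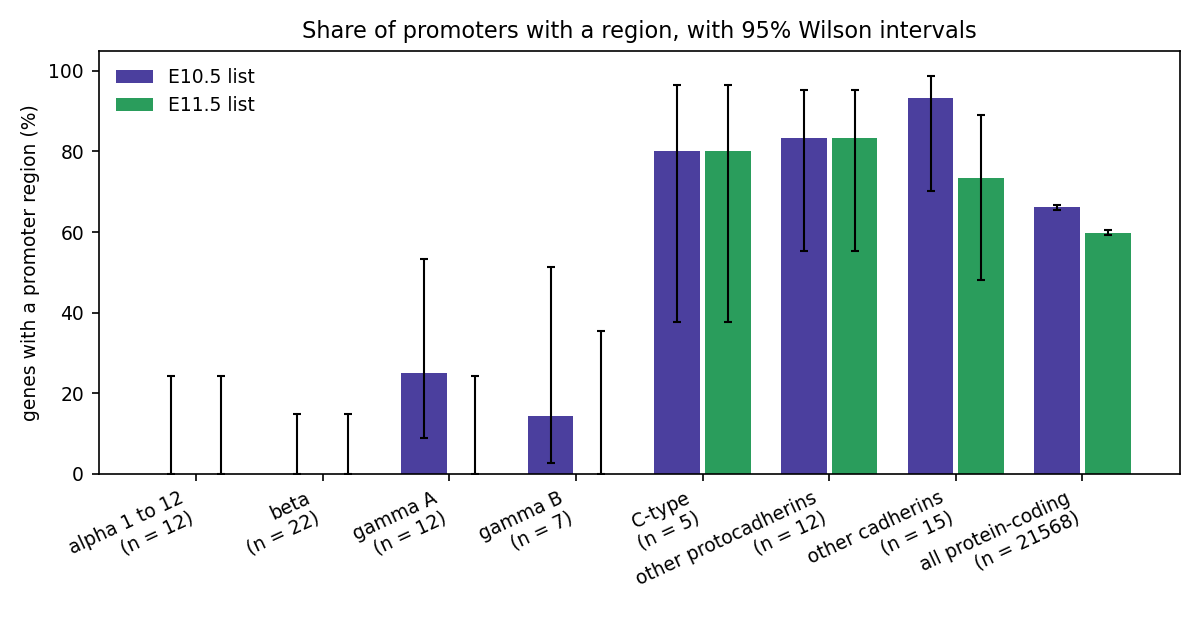
Percentage of genes with a region within 1 kb of the start site in the E10.5 and E11.5 lists, for protocadherin subgroups, 2 gene lists and all protein-coding genes, with error bars for the 95% Wilson interval. The alpha 1 to 12 and beta genes stand at 0 in both lists, the gamma A and B genes have bars at E10.5 only, and 4 of 5 C-type genes have a region in each list.

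In the alpha group, the open promoters were the last 2 of 14. Pcdhac1, with its start site at 37090136, had an E10.5 region at 37089690 to 37090099, which ended 37 bp before the start site. Its signal was 741, its −log10 p was 5.81, and 10.3% of the protein-coding promoter regions of that list had a lower signal. The E11.5 region of Pcdhac1 lay inside it, at 37089819 to 37090095, with signal 489 and −log10 p 4.86. Pcdhac1 thus had a short region of low total signal just upstream of its start in each list. Pcdhac2, the last alpha variable exon, had a wider region across its start site at 37143678. It ran from 37143348 to 37144679 at E10.5, with a signal of 3218, and from 37143383 to 37144704 at E11.5, with a signal of 2021. The position of its highest signal lay 635 bp after the start site at E10.5 and 217 bp after it at E11.5. That distance of 418 bp was the largest among the 15 E10.5 regions of the interval that overlapped an E11.5 region. In each list 36.7% of promoter regions had a lower signal than the Pcdhac2 region. Per bp, the signal was 1.81 (E10.5) and 1.77 (E11.5) for Pcdhac1, and 2.42 and 1.53 for Pcdhac2.

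The 12 preceding alpha genes, Pcdha1 to Pcdha12, lacked a promoter region in both lists (0 of 12, 95% Wilson interval 0 to 24.2%). Their start sites lay in a stretch without any region, 286 kb long in the E10.5 list, from 36803328 to 37089689, and 288 kb long in the E11.5 list. The nearest region was 69.5 kb away for Pcdha12 and 143 kb away for Pcdha3 at E10.5, with a median of 119 kb over the 12 genes. All protein-coding genes had a median distance of 0 kb, and 9.43% of them were over 100 kb from a region, as were 7 of these 12. Of all stretches between neighbouring regions, 0.937% were longer in the E10.5 list and 4.08% in the E11.5 list. Of those at least as long, 62 others (E10.5) and 80 others (E11.5) held at least as many protein-coding start sites, 12.

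The beta group was bare. None of its 22 genes, Pcdhb1 to Pcdhb22, had a promoter region in either list (0 of 22, 95% Wilson interval 0 to 14.9%). That interval treats these neighbouring genes as independent, though they lie in a single stretch without regions. No region of either list touched the 256 kb from the first beta start site to the last beta end (37264998 to 37521419). The stretch without regions was longer than the group, measuring 425 kb in the E10.5 list (37218455 to 37643900) and 425 kb in the E11.5 list (37218456 to 37643709). Of the stretches in the lists, 518 of 99335 (E10.5) and 857 of 37392 (E11.5) were longer. Of those at least as long, 27 others (E10.5) and 34 others (E11.5) held at least as many protein-coding start sites, 23. Besides the 22 members the stretch holds Slc25a2, which encodes a mitochondrial carrier. The beta gene nearest to a region was Pcdhb1, at 46.5 kb, and the farthest was Pcdhb12, at 208 kb. In each list 18 of 22 lay beyond 100 kb, all in that single stretch. Of all protein-coding genes, 9.43% (E10.5) and 11.8% (E11.5) did.

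Sequence repeated between copies was measured in transcripts rather than in the promoters themselves. For 21 of the 22 beta genes a transcript carried the gene's name, and its first 1000 bases were cut into words of 31 bases and counted in the NCBIM37 assembly. In 12 of the 21 genes, among them Pcdhb1 and Pcdhb22, every word occurred once in the genome. In the other 9 the share occurring once ranged down to 61.9%, in Pcdhb12. Among 11 transcripts of alpha gene models the share ran from 72.4% to 100%, and among 10 gamma transcripts from 80% to 100%. Both sets of beta genes were without a region in each list, and the part of repeated sequence in that was not tested. The read length, and how reads with several matches were treated, are not given in the sources used here.

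**Figure D2:**
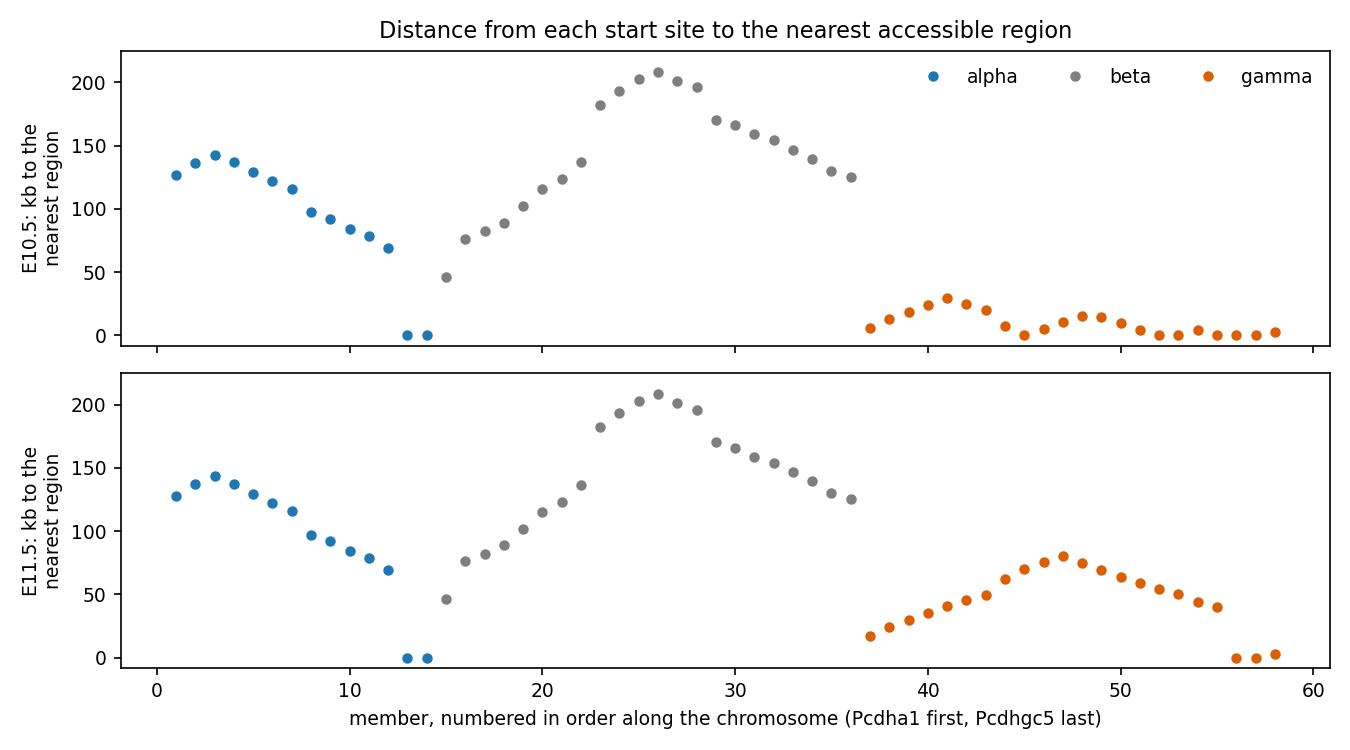
Distance in kb from each member's start site to the nearest region, with members in chromosomal order from Pcdha1 (position 1) to Pcdhgc5 (position 58), in the E10.5 list (top) and the E11.5 list (bottom). Open promoters are the points within 1 kb. Gamma genes a few kb up, such as Pcdhgc5 at 2.44 kb in the E10.5 list, are not open. The beta genes rise to 208 kb in both panels, while the gamma genes stay within 29.3 kb at E10.5 and 80.2 kb at E11.5.

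In the gamma group, the E10.5 list held a promoter region for 6 of 22 genes (27.3%, 13.2 to 48.2%) and the E11.5 list for 2 of 22 (9.09%, 2.53 to 27.8%). The A- and B-type gamma genes are interleaved and precede the C-type genes. Of the 12 A-type genes 3 had an E10.5 region and of the 7 B-type genes 1 did, and none of the 19 had an E11.5 region. The 4 regions had low total signals, and per bp their signals ran from 0.585 (Pcdhga12) to 2.01 (Pcdhgb7). The region of Pcdhgb7 at 37751525 to 37752079 crossed the start site at 37751619, with signal 1117 and −log10 p 5.77. The region of Pcdhga7 at 37714696 to 37715247 also crossed its start site, with a signal of 384. Pcdhga11 had a region at 37755680 to 37756005, across the start site, with a signal of 338, and Pcdhga12 had the weakest, at 37765820 to 37766211, 240 bp into the gene, with a signal of 229.

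These signals stood low among promoters, since between 0.998% (Pcdhga12) and 14.4% (Pcdhgb7) of the E10.5 promoter regions were lower, and the smallest signal of the list was 200. Pcdhgb7, Pcdhga11 and Pcdhga12 are close neighbours, with only Pcdhgb8 among them, and Pcdhga7 lies apart, before a run of 6 genes without a region. Over the whole genome, most E10.5 regions of such a signal had no E11.5 overlap. Among the 1000 E10.5 regions nearest in signal, 23.4% had an E11.5 overlap for Pcdhgb7, 5.10% for Pcdhga7, 4.30% for Pcdhga11 and 3.90% for Pcdhga12. For Pcdhac1, which did overlap an E11.5 region, the same share was 14.5%. With the E10.5 list shortened to the 37413 strongest regions, the length of the E11.5 list, none of the 4 A- and B-type promoters and not Pcdhac1 had a region at E10.5. By signal that loss was fixed in advance, since at most 58.5% of the 99356 E10.5 regions were lower than any of them. The share of all promoters lost under this cut was not computed. The other 15 A- and B-type genes had their nearest E10.5 region between 4.02 and 29.3 kb away.

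**Figure D3:**
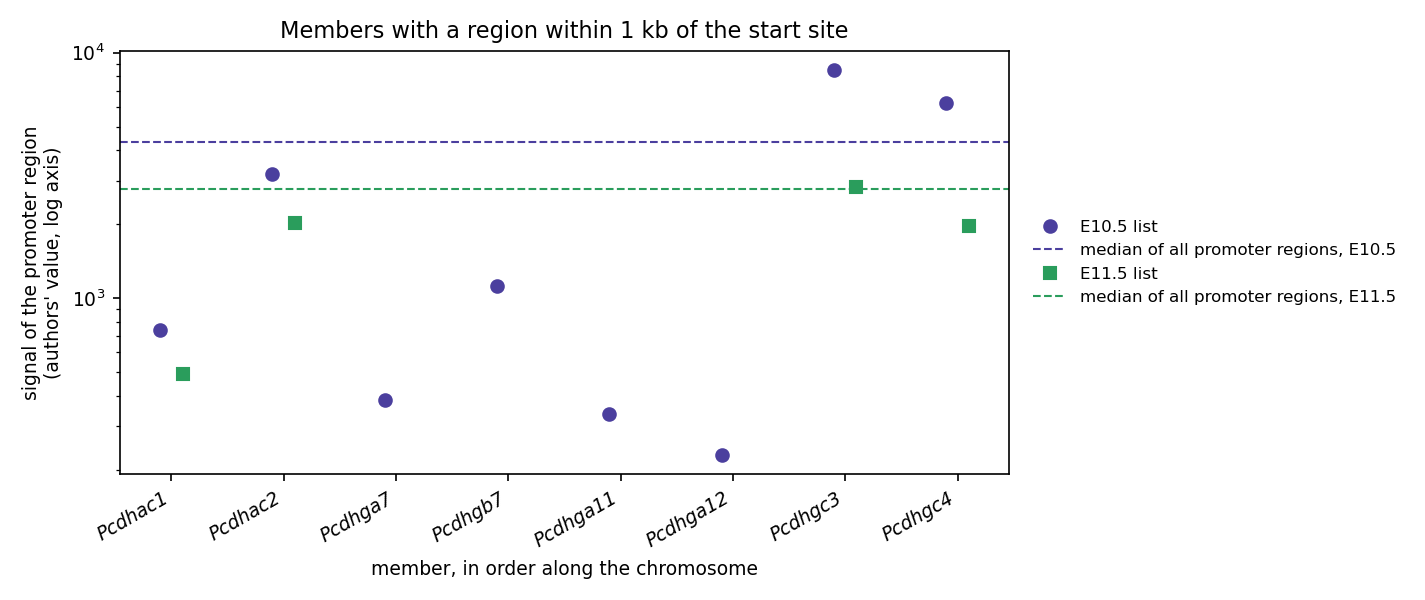
Signal of the promoter region (authors' value, logarithmic axis) of the 8 members that have one, in the E10.5 list (circles) and the E11.5 list (squares), with dashed lines at the median over all protein-coding promoter regions (4312 for E10.5, 2781 for E11.5). Pcdhgc3 lies above the line in each list and Pcdhgc4 in the E10.5 list, the other members lie below, and 4 gamma genes have no E11.5 point.

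Pcdhgc3 had the highest promoter signal of the members in each list, followed by Pcdhgc4 at E10.5 and by Pcdhac2 at E11.5. The Pcdhgc3 region ran from 37805883 to 37808987 at E10.5, a width of 3105 bp, with signal 8503 and −log10 p 11.9. At E11.5 it ran from 37805954 to 37807365, with signal 2844 and −log10 p 8.97. Of all promoter regions, 85.7% had a lower signal in the E10.5 list and 51.2% in the E11.5 list. Its summit, the position of the highest signal, lay 54 bp before the start site at E10.5 and 55 bp before it at E11.5. A second E10.5 region within reach of Pcdhgc3, at 37805052 to 37805591, had a signal of 433 and no E11.5 overlap.

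Pcdhgc4 had a region at 37813814 to 37816373 at E10.5 with a signal of 6251, and at 37814337 to 37815697 at E11.5 with a signal of 1964. Its summits lay 249 bp and 248 bp after the start site. Pcdhgc5 is the C-type gene without a promoter region. Its start site at 37819546 lay 2.44 kb from the nearest E10.5 region and 2.85 kb from the nearest E11.5 region, so a promoter reach of 2 kb left it without one too.

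The shared 3′ parts of the alpha and gamma genes held 8 of the 27 E10.5 regions and 7 of the 21 E11.5 regions. Exons of the mm10 build were not used here, so these parts run from 5 kb after the last variable start site to the last gene end, introns included. The alpha part (37148678 to 37188897) had 5 regions at E10.5. The strongest was at 37177810 to 37179302, with a signal of 3866, followed by 37158656 to 37159887, with a signal of 3204. Each overlapped an E11.5 region, with signals of 1371 and 561, and the summits were 1 bp and 48 bp apart. The other 3, at 37172321, 37180058 and 37184735, had signals of 268, 627 and 907 and were in the E10.5 list only.

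The gamma part (37824546 to 37841873) had 3 regions at E10.5, among them the 2 of highest total signal in the interval. These were 37821987 to 37826971 with a signal of 12053 and 37840405 to 37843545 with 10559, and the third was 37835205 to 37837187 with 7422. Of all E10.5 regions, 99.0%, 98.4% and 95.6% had a lower signal. The first of them begins 2.44 kb after the Pcdhgc5 start site, and the second runs over the shared end of the gamma genes. At E11.5 the same 3 stretches were broken into 7 regions with signals from 550 to 2046. The highest was 37841901 to 37843198 (signal 2046), which begins 28 bp after the last gamma end, and 37841356 to 37841777 (797) stood just before it. Over the first E10.5 region lay 37822400 to 37823073 (1397), 37824823 to 37825830 (1241) and 37826221 to 37826793 (591). Over the third lay 37835498 to 37835857 (550) and 37835973 to 37836891 (886). The E11.5 regions at 37822400 and 37841901 lie outside the gamma part as bounded here and were counted as other regions. These 7 are therefore not the 7 E11.5 regions counted for the shared parts above.

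**Figure D4:**
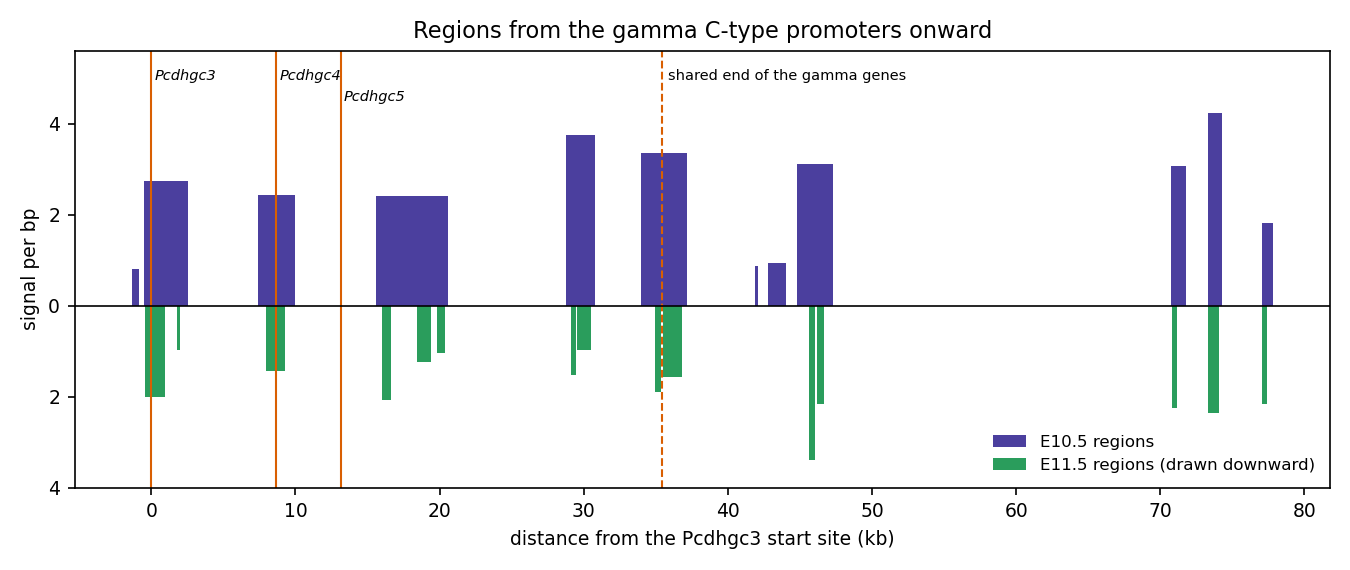
Signal per bp (authors' signal divided by width) of each region from the Pcdhgc3 start site onward, with E10.5 regions drawn upward and E11.5 regions downward, each as wide as it was called. Orange lines mark the start sites of the gamma C-type genes and the dashed line their shared end, and single wide E10.5 regions face 2 or 3 narrower E11.5 regions at 5 places.

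Beyond the shared parts and the promoters there were 10 other regions in each list. Those of E11.5 include 37822400 and 37841901, already described over the E10.5 regions of the gamma part. Downstream of gamma, inside Diaph1, a formin gene on the opposite strand, a further group was found. The strongest was at 37851179 to 37853725, 9.31 kb after the gamma end, with an E10.5 signal of 7948 and a pair of E11.5 regions of 1387 and 996. Farther on, 3 neighbouring regions began at 37877144, 37879700 and 37883472, with E10.5 signals of 3264, 4158 and 1348. Their E11.5 counterparts had signals of 888, 1854 and 707. The E10.5 list alone held 2 weaker regions there, at 37848287 (signal 203) and 37849205 (1157). The nearest Diaph1 start site lies outside the interval, at 37935622.

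Downstream of alpha, a single region at 37218009 to 37218454 stood 29.1 kb after the last alpha end. Its signal was 642 in the E10.5 list and 490 in the E11.5 list, with summits 8 bp apart, and of the 1000 E10.5 regions nearest in signal 13.4% had an E11.5 overlap. Enhancers of these clusters, such as HS5-1 downstream of the alpha constant exons, are known from neurons. Their coordinates are not in the files used, so no region was matched to them. Between beta and gamma, the promoter of Taf7, a subunit of the general transcription factor TFIID, had a region at 37643901 to 37644607 with a signal of 2164 (E10.5), and 2343 in the E11.5 list. Of the 15 shared E10.5 regions of the interval, it was the only one with a higher summed signal in the E11.5 list. The last 3 other regions had low signals, at 37655797 (266) and 37768193 (210) at E10.5 and at 37808208 (203) at E11.5. The region at 37808208 lies inside the E10.5 region of the Pcdhgc3 promoter.

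**Figure D5:**
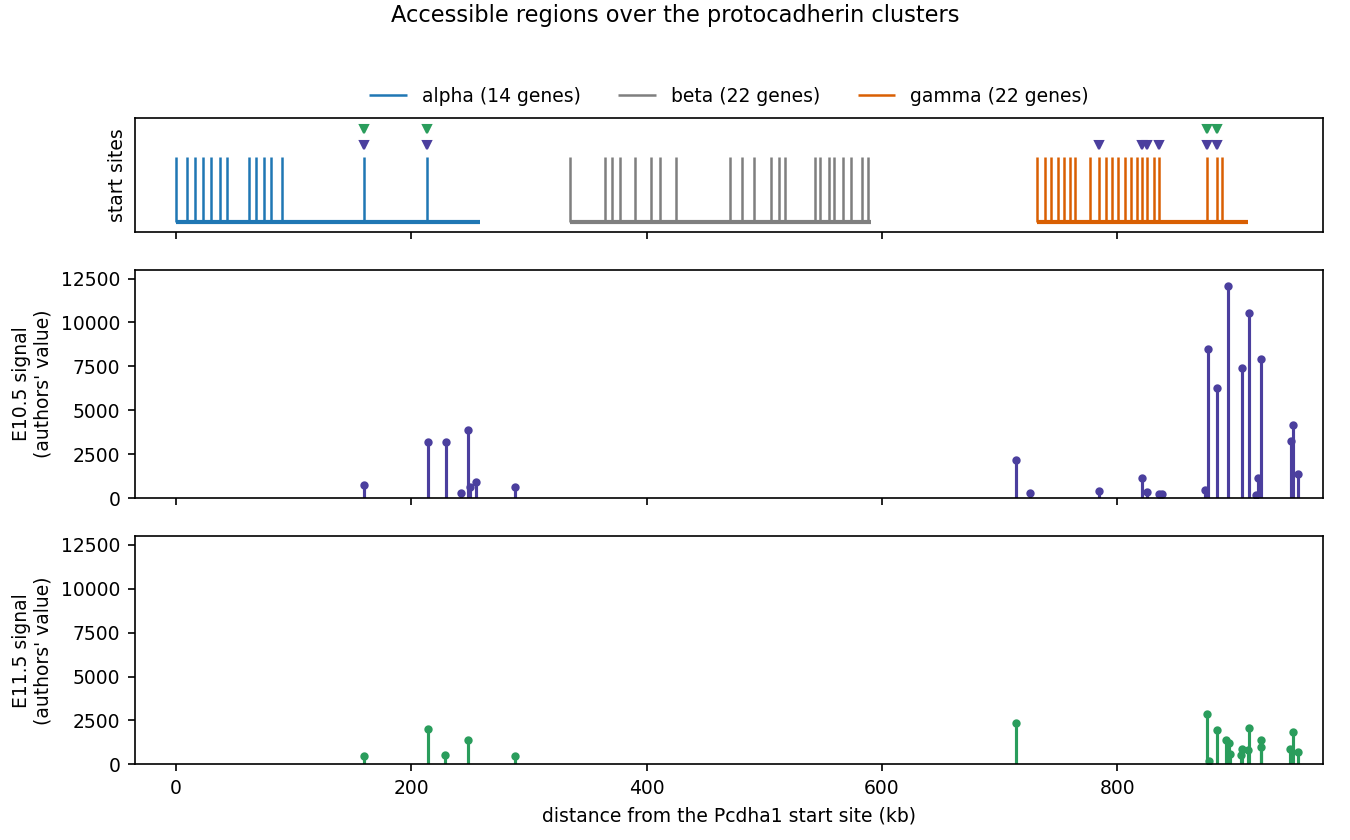
Start sites of the alpha, beta and gamma genes (top), with triangles over those with a promoter region at E10.5 (lower row, violet) or E11.5 (upper row, green), and the signal (authors' value) of each region in the E10.5 and E11.5 lists, by distance in kb from the Pcdha1 start site. Regions gather at the 3′ ends of the alpha and gamma groups, and the beta genes have none.

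Every E11.5 region of the interval, 21 of 21, overlapped an E10.5 region, as did 91.8% of all E11.5 regions. No E11.5 region of the interval overlapped more than 1 E10.5 region, and over the genome 0.681% of the shared ones did. Of the 27 regions in the E10.5 list, 15 were shared with the later list (55.6%, 95% Wilson interval 37.3 to 72.4%), against 32.3% of all E10.5 regions. The shares among the 1000 E10.5 regions nearest in signal to each of the 27 summed to 12.1 regions, closer to the 15 seen. With the E10.5 list shortened to the length of the E11.5 list, by either ranking, 13 of the 27 remained and all 13 were shared. The matching share over all regions was not computed. Signal separated the sets only in part, with 642 to 12053 in the 15 shared regions and 203 to 1157 in the 12 others. Pcdhac1 and the region downstream of alpha overlapped E11.5 regions at signals of 741 and 642, below the unshared regions of Pcdhgb7 and of Diaph1 at 37849205. In 12 of the 15 shared regions the summits of the lists lay within 100 bp, against 82.3% of all shared regions.

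Several wide E10.5 regions faced more than 1 E11.5 region. Of the 15, 5 (33.3%) overlapped 2 or more E11.5 regions, against 6.84% of all shared E10.5 regions. The 5 ran from the Pcdhgc3 promoter to the strongest Diaph1 region. They were 1983 to 4985 bp wide, where the median width of the E10.5 list was 624 bp. A wide region can hold more E11.5 regions, and no share over regions of like width was computed. The E11.5 signal summed over an E10.5 region was a median of 0.355 of the E10.5 signal in the 15 regions and 0.404 in all 32087 shared regions, whose quartiles were 0.216 and 0.668. The median was 0.268 over the 5 shared regions of the 3′ parts, 0.493 over the 4 shared promoters and 1.08 at Taf7. These ratios have no error, and the scaling of the lists against each other is unknown.

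Density differed along the clusters. From the first start site to the last end, the gamma genes had 61.1 regions per Mb in the E10.5 list and 49.97 in the E11.5 list. These stand for 11 and 9 regions. The single E10.5 regions at 37805883, 37821987 and 37835205 faced 2, 3 and 2 of the E11.5 regions. The fall in gamma density is thus smaller than it would be with broken regions counted once. The alpha genes had 27.1 and 15.5 per Mb, the beta genes had 0 in each list, and chromosome 18 as a whole had 38.7 and 12.9.

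Of 12 protocadherins outside the clusters, 10 had a promoter region in each list (83.3%), the exceptions being Pcdh9 and Pcdh12, where all protein-coding genes stood at 66.2% and 59.9%. Pcdh7 had signals of 21723 (E10.5) and 15103 (E11.5), and Pcdh10 had 7577 and 6121. Pcdh1, on chromosome 18 beyond the clusters, had 9780 and 697. Of 15 other cadherins, 14 were open at their promoter in the E10.5 list (93.3%) and 11 in the E11.5 list (73.3%). Cdh11, a mesenchymal cadherin, had signals of 15664 and 8100, and Cdh2, N-cadherin, had 12314 and 7120. Cdh3 had 10760 and 1398, and Cdh1, also among the surface ectoderm markers, had 1400 and 305. The open cadherins thus do not single out mesenchyme. The fall between the lists came from Cdh5, Cdh6 and Cdh13 alone. Their E10.5 signals were at most 386, where the smallest signal of that list was 200.

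Of 20 genes known to act on the clusters, 15 had a promoter region in each list (75%), a share near that of all protein-coding genes. Ctcf, which encodes the insulator protein CTCF, had signals of 10194 and 6045. Wapl, the cohesin release factor, had 6150 and 5974, and Smchd1, which represses clustered protocadherins, had 9252 and 7313. Dnmt3b, which methylates their promoters, had 6232 and 2073. The 5 without a region at their outermost start site were Rad21, Stag1, Nipbl, Dnmt1 and Dnmt3a. With any RefSeq start site counted, an alternative chosen after seeing the data, 18 of 20 had one in each list, as did 69.3% and 63.4% of all protein-coding genes.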

How the data were processed

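ATAC-seq was run on limb cells of 4 samples, 2 per stage. Per the submitters' processing notes, cutadapt, Bowtie2, SAMtools, deepTools and Genrich were used, with no role or version, on mm10. The deposited files are narrowPeak lists on mm10, per the file headers, each joining 2 libraries. How replicates were combined, any shift for Tn5 and the thresholds are not given in the sources used here. The authors give each peak a signal, a −log10 p-value and a score, which is their signal per bp rescaled and capped and was not used. The deposited q-value column holds -1 throughout.

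Positions are 1-based. Gene ends came from a RefSeq table of GRCm38.p6, the assembly of mm10, and strand from RefSeq promoters or, by symbol, GENCODE M1 (98.5% of 21887 protein-coding genes). Members without a strand of their own were placed on the plus strand of their group. Pcdha4, Pcdha6 and Pcdha7 each share a start with a read-through gene model under another symbol, which is no member. Regions were placed first as promoter, then as shared 3′ part, then as other, and were shared at 1 bp of overlap. Named with values are all members with a promoter region, all regions of the 3′ parts and the 5 strongest other regions of each list, and the remaining regions by start. Overlap code was tested on simulated regions. Python 3.11.15, numpy 2.4.6, pandas 2.3.3 and scipy 1.17.1 were used. The members, lists and alternatives were chosen with earlier results of these data known. Alternatives were a −log10 p of at least 5, an E10.5 list of the length of the E11.5 list, a reach of 500 bp or 2 kb, placing by summit and 50% reciprocal overlap.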

Additional observations from a re-analysis of the deposited data

How the results depend on the processing

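No paired analysis was possible because the lists hold no value per replicate, for which reason no replicate could be left out either. Over 51 values recomputed for the counts of promoters and regions, 38 stayed within 1.5 times the reported count and 13 did not. The beta count was 0 under each of the 6 settings run at E10.5 and the 4 at E11.5. That outcome was fixed in advance, since no beta start site had a region nearer than 46.5 kb in either list. These zeros are among the 38 values and say nothing about robustness. With −log10 p of at least 5, by construction fewer regions remained, 17 at E10.5 and 13 at E11.5, with 3 gamma promoters at E10.5 (Pcdhgb7, Pcdhgc3 and Pcdhgc4) and 1 alpha promoter at E11.5 (Pcdhac2). With the E10.5 list shortened to the length of the E11.5 list, ranked by signal or by −log10 p, 13 regions, 1 alpha promoter (Pcdhac2), 2 gamma promoters (Pcdhgc3 and Pcdhgc4) and 5 other regions remained at E10.5 under either ranking. The gamma promoters of Pcdhga7, Pcdhga11 and Pcdhga12 were thus absent under all 3 of these settings. With 50% reciprocal overlap, 6 E10.5 regions of the interval were shared. Shares over all regions or genes were not computed under these settings, so these counts cannot be read as particular to the clusters. A promoter reach of 500 bp or 2 kb and placing by summit left each promoter count as reported. The unknown depth of the lists limits every count.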
